A study of Homo sapiens with 2 samples.

Results

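Chromatin occupancy of the transcription factor TCF7L1 was examined at 10 genes of the epithelial-mesenchymal transition (EMT), SNAI1, SNAI2, ZEB1, ZEB2, TWIST1, TWIST2, CDH1, CDH2, VIM and GRHL2, out of 20033 protein-coding genes annotated on chromosomes 1 to 22, X and Y. The 10 genes were chosen by name, and every ChIP-seq summit inside a gene or no more than 100 kb from any of its transcription start sites (TSSs) was taken. Of 3762 TCF7L1 summits, 8 met this rule, and of 224 TCF7L1-MUT summits, 0 did. The cells were HCT116, an established human colon adenocarcinoma cell line. In both groups endogenous TCF7L1 was depleted with the shTCF7L1-2 hairpin, and doxycycline at 1 µg/ml induced a FLAG-tagged protein from the pCW57.1 plasmid. That protein was TCF7L1 in one group and TCF7L1-MUT, whose DNA-binding domain is mutated, in the other, and anti-FLAG antibodies were used for immunoprecipitation. Each group had 1 sample from a stable line, so no value has a replicate check, no test between groups was possible, and occupancy was that of an induced tagged protein. The data are lists of enriched regions, in which RNA was not measured, and total library depth was not analysed here.

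EMT is the change by which epithelial cells loosen their junctions and gain motility, and it is studied in colorectal cancer because migrating tumour cells show features of it. Zinc-finger factors of the SNAI and ZEB families and bHLH factors of the TWIST family are known to drive it, in part by repressing CDH1, which encodes E-cadherin of epithelial adherens junctions. CDH2, which encodes N-cadherin, and VIM, which encodes the intermediate filament protein vimentin, mark mesenchymal cells, while GRHL2 encodes a factor that maintains the epithelial state. TCF7L1 belongs to the TCF/LEF family, binds DNA through an HMG box and acts mostly as a repressor.

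The stretches of genome at 4 of the summits are shown because they lie at or close to the starts of CDH2, ZEB2 and TRDMT1. The summit at the VIM start is left out because it lies in an untranslated region. Each is read from hg38 on the plus strand and is centred on the summit, and the stretch at the CDH2 start was shortened where an untranslated region began. Capitals mark CTTTGNN with A or T at each N, the core sequence of TCF factors, and CACCTG, the E-box form that SNAI and ZEB factors recognise, on either strand. The stretches are the CDH2 start (chr18:28177131-28177330), the CDH2 intron (chr18:28175244-28175444), the region upstream of ZEB2 (chr2:144523815-144524015) and the TRDMT1 start upstream of VIM (chr10:17201132-17201332).
CDH2 start: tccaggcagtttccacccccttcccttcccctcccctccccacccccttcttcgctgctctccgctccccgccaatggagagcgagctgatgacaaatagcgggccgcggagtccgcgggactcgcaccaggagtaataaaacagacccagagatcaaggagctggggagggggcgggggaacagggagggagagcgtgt
CDH2 intron: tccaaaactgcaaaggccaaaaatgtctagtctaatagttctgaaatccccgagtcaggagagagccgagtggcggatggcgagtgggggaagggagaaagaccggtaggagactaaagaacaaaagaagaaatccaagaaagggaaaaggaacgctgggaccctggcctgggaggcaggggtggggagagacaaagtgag
ZEB2 upstream: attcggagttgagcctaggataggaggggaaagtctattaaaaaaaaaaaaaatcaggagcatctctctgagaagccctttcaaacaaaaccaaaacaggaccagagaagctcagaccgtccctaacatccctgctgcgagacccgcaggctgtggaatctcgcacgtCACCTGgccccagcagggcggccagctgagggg
TRDMT1 start: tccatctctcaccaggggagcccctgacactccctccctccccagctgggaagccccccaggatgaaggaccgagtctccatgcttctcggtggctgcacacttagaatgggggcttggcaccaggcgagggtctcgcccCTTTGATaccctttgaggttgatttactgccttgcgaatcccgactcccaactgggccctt

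Summits were present near 5 of the 10 genes, namely SNAI1, ZEB2, CDH2, VIM and GRHL2, and were not listed near SNAI2, ZEB1, TWIST1, TWIST2 or CDH1. CDH2 had 3 summits, VIM had 2, and SNAI1, ZEB2 and GRHL2 had 1 each. Under the same rule, 23.1% of all protein-coding genes had a TCF7L1 summit. CDH2 was the one gene of the 10 with at least 3 summits, which 2.14% of all protein-coding genes had. That share was not split by window length, and CDH2 had the longest window of the 10, 412 kb. A summit within 2.5 kb of a TSS was found at CDH2 and VIM, against 4.8% of protein-coding genes. CDH2 and VIM were also the 2 genes with a summit inside the gene, against 7.21%. With 10 genes, each gene carries a large part of such a share, and no test was made.

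**Figure D1:**
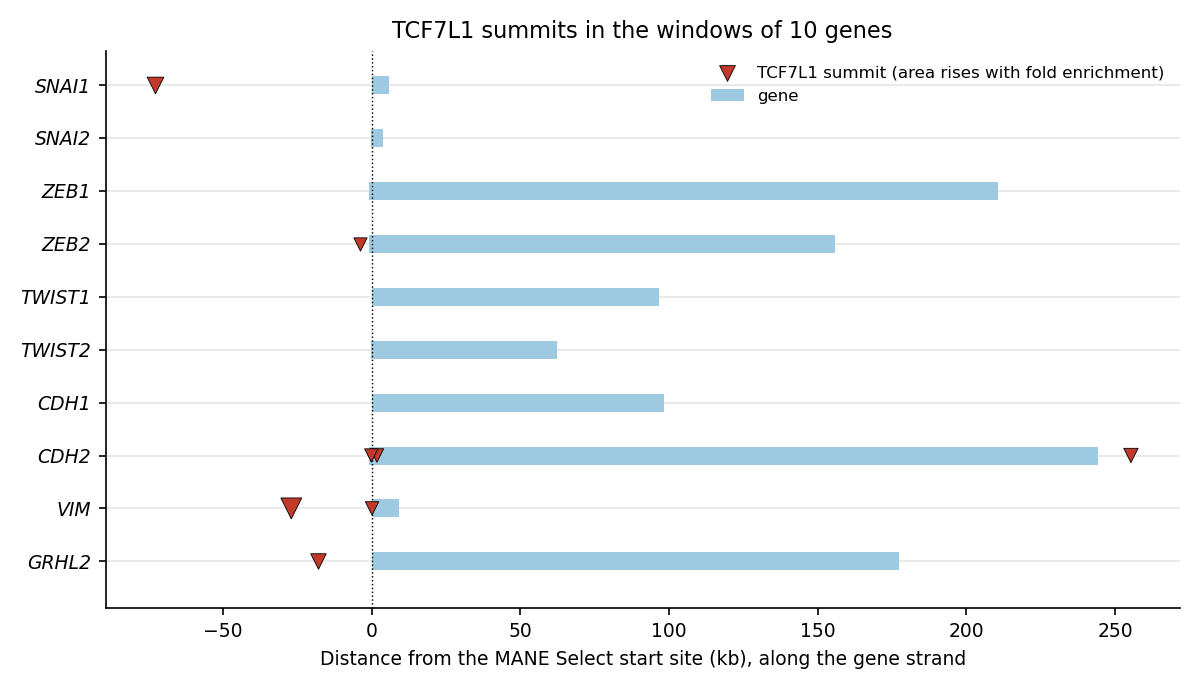
Positions of the 8 TCF7L1 summits (red triangles, area rising with fold enrichment) in kb from the MANE Select TSS of each gene, with upstream to the left and the gene drawn in blue. CDH2 and VIM carry summits at the dotted line that marks the TSS, and SNAI2, ZEB1, TWIST1, TWIST2 and CDH1 carry no triangle.

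The length of a search window depends on gene length and on the spread of the TSSs, and a longer window can meet more summits. The median window was 245 kb over the 10 genes and 211 kb over all protein-coding genes. When protein-coding genes were split into quartiles of window length, 18.1%, 17.8% and 34.4% had a summit in the shortest, the next and the longest quartile; no gene of the 10 was in the remaining one. CDH1, CDH2, ZEB1, ZEB2 and GRHL2 fell into the longest quartile, and 3 of these 5 had a summit. SNAI1, SNAI2 and TWIST2 were in the shortest quartile, where SNAI1 had a summit, and TWIST1 and VIM were in the next, where VIM had 2. Over the union of the 10 windows, 2.68 Mb in all, TCF7L1 summits numbered 2.98 per Mb (Poisson 95% interval 1.29 to 5.87), against 1.25 per Mb (interval 1.21 to 1.29) over the chromosomes. The interval covers counting error only, and the windows lie at genes whereas the chromosomes include gene-poor sequence.

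The fold enrichment of a summit is the authors' ratio of the reads stacked there to the local background. Because a single library gives no replicate error, the pair of a whole read number and a background that yields both the deposited fold enrichment and p-value was found for each summit, and a Poisson 95% interval was set on the reads with the background held fixed. The median fold enrichment of the 8 summits was 3.64, with a range of 3.20 to 9.89. The median over all TCF7L1 summits was 4.98, with quartiles of 4.21 and 5.89. The median at the 10 genes moved between 3.32 and 7.84 under other settings, which are given in the last section. The 7.84 came from keeping only summits with a fold enrichment of at least 5, so it could not be below 5. A fold enrichment below 4 was found at 5 of the 8 summits and at 18.6% of all TCF7L1 summits.

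**Figure D2:**
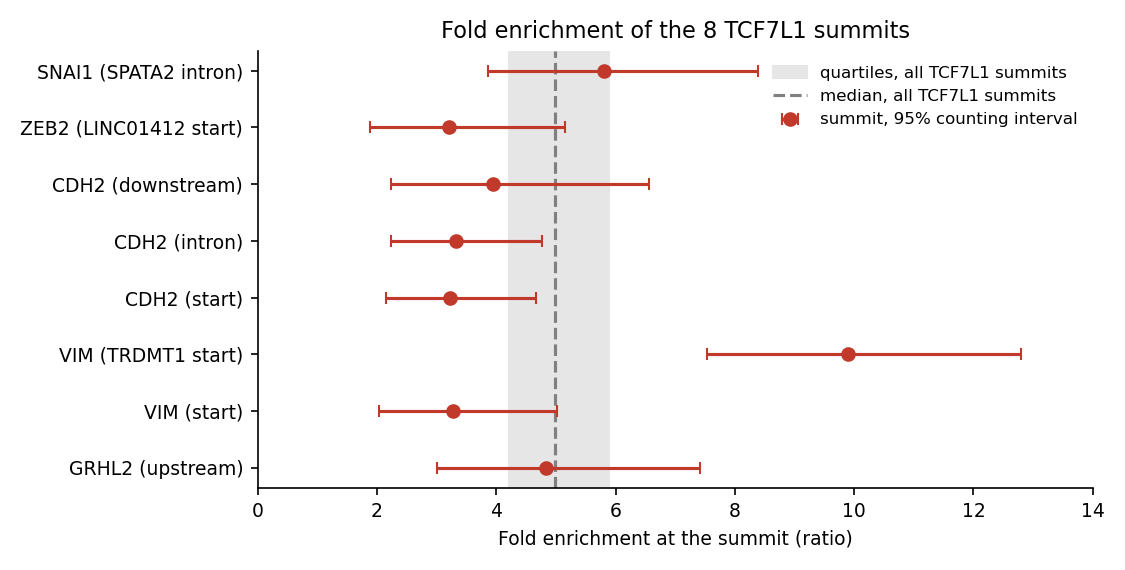
Fold enrichment at each of the 8 TCF7L1 summits with its Poisson 95% counting interval (bars), beside the median (dashed line, 4.98) and quartiles (grey band) of all TCF7L1 summits. The summit at the TRDMT1 start, 9.89, is the one point above the band, and 5 points lie below it.

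Of the mesenchymal markers, CDH2 had the most occupancy by number of summits. CDH2 lies on the minus strand of chromosome 18 at 27932879 to 28177946 and has 11 annotated TSSs. The region at its start, 28177008 to 28177317, covered 3 of these TSSs, among them that of the MANE Select transcript, the standard reference transcript. Its summit was 100 bp upstream of the MANE Select TSS, in an intron of a transcript that starts farther upstream. The fold enrichment was 3.22 (interval 2.15 to 4.67) and the −log10 q-value 3.24, from 26 reads over a background of 7.38. In the stretch shown above, the summit window had a GC content of 64.7% and 12 CpG dinucleotides, against medians of 51.7% and 4 over all TCF7L1 windows.

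The neighbouring CDH2 region at 28175183 to 28175492 was separated from it by 1515 bp. This intronic summit lay 1786 bp downstream of the MANE Select TSS. Its fold enrichment was 3.32 (interval 2.23 to 4.77), its −log10 q-value 3.67, and 27 reads were stacked over a background of 7.44. These 2 summits had nearly the same reads and background, and their intervals overlapped almost fully. The third CDH2 summit was beyond the 3′ end of the gene, in a region at 27921537 to 27922034, 255309 bp downstream of the MANE Select TSS and 44014 bp from the nearest annotated TSS of CDH2. It lay in an intron of the long non-coding RNA ENSG00000227279, 270 bp downstream of its TSS. Its fold enrichment was 3.95 (interval 2.24 to 6.56), with a −log10 q-value of 2.12 and 13 reads over a background of 2.54.

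VIM lies on the plus strand of chromosome 10 at 17228241 to 17237593 and has 9 annotated TSSs. The region at its start, 17228173 to 17228951, was 779 bp wide, the widest of the 8, and covered 3 of these TSSs, the MANE Select TSS included. Its summit was 144 bp downstream of the MANE Select TSS, in an annotated untranslated region of VIM and in an intron of the antisense RNA gene VIM-AS1. The fold enrichment was 3.27 (interval 2.03 to 5.02) and the −log10 q-value 2.13, from 19 reads over a background of 5.11. The window had 13 CpG dinucleotides, the most of the 8. Peak lists carry no strand, so VIM and VIM-AS1 cannot be told apart at this summit.

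The other summit in the VIM window was the strongest of the 8 and was nearer to another gene. It lay upstream of VIM, at −27009 bp from the VIM TSS, in the region 17200985 to 17201505, in an intron of TRDMT1, which encodes an RNA methyltransferase, and 196 bp downstream of a TRDMT1 TSS. Its fold enrichment was 9.89 (interval 7.53 to 12.8), with a −log10 q-value of 34.1 and 57 reads over a background of 4.87, and it ranked 54 by fold enrichment among the 3762 TCF7L1 summits. The 2 regions in the VIM window were 26667 bp apart, and their intervals did not overlap.

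**Figure D3:**
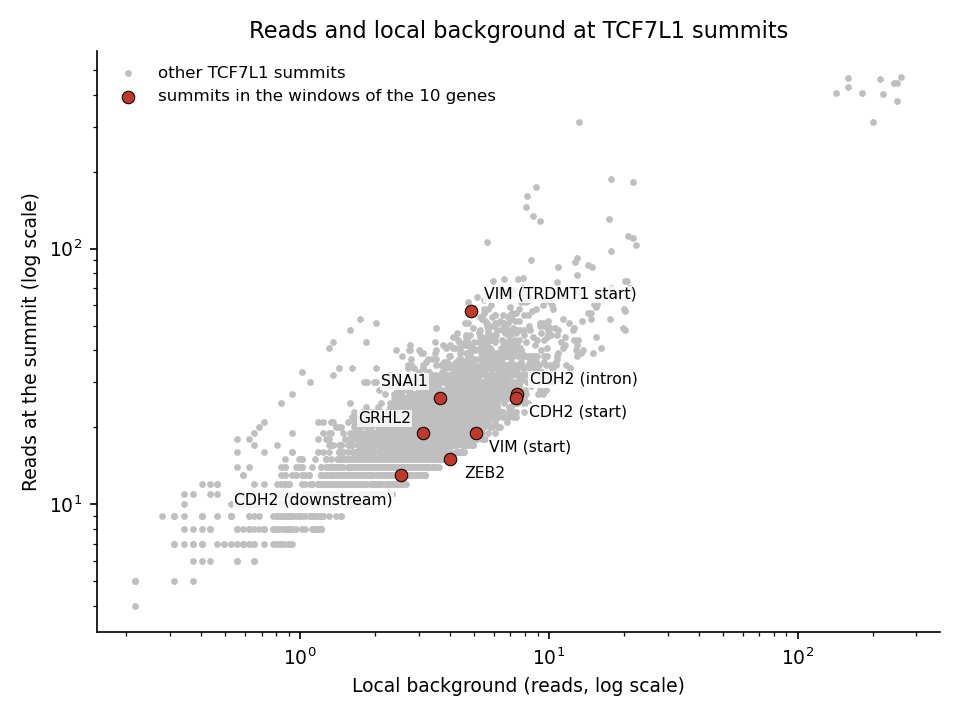
Reads at the summit against the local background, both in reads on log scales, for the 8 summits near EMT genes (red) and all other TCF7L1 summits (grey). The 2 CDH2 summits at and beside the start sit at a background of about 7.4 reads on the lower edge of the grey cloud, and the TRDMT1 start summit in the VIM window sits at its upper part with 57 reads.

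The summits at the starts of CDH2 and VIM were among the weaker TCF7L1 summits by fold enrichment, while their reads were close to or above the median. A lower fold enrichment was found at 3.14% of TCF7L1 summits for the CDH2 start, at 3.99% for the CDH2 intron and at 3.56% for the VIM start. Their reads were 26, 27 and 19, beside a median of 20 over all 3762 summits, and their backgrounds were 7.38, 7.44 and 5.11, beside a median of 3.29. Over the 959 TCF7L1 summits within 2.5 kb of any protein-coding TSS, the median background was 3.69, with quartiles of 2.60 and 5.11, and the median fold enrichment 4.59. Backgrounds of the CDH2 summits were above the upper quartile of that set, and that of VIM was at it. Over the 806 TCF7L1 summits with a background of at least 5 reads, the median fold enrichment was 4.27, with quartiles of 3.65 and 5.27. The CDH2 start, CDH2 intron and VIM start summits, at 3.22, 3.32 and 3.27, were below that lower quartile. The part that the background played in the fold enrichments was not tested.

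Among the transcription factors that drive EMT, ZEB2 and SNAI1 had a summit in their windows, and SNAI2, ZEB1, TWIST1 and TWIST2 did not. ZEB2 lies on the minus strand of chromosome 2 at 144364364 to 144521057, with 46 annotated TSSs. Measured from the nearest ZEB2 TSS, the summit of the region 144523804 to 144524128 was at −2858 bp, where a minus sign means upstream, just past the distance of 2.5 kb. From the MANE Select TSS it was at −3796 bp. The summit lay in an exon of the long non-coding RNA LINC01412, 11 bp downstream of its TSS, and in an intron of LINC02993. The fold enrichment was 3.20 (interval 1.88 to 5.15), the lowest of the 8, from 15 reads over a background of 4.0. The −log10 q-value was 1.38, where the lowest value listed for any TCF7L1 summit was 1.31.

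The summit in the SNAI1 window was far from that gene. SNAI1 lies on the plus strand of chromosome 20 at 49982980 to 49988886 with 1 TSS, and the summit was 72994 bp upstream, in the region 49909709 to 49910213. It was in an intron of SPATA2, 3753 bp downstream of a TSS of that gene. Its fold enrichment was 5.80 (interval 3.86 to 8.39), with a −log10 q-value of 9.17 and 26 reads over a background of 3.66. It was the second strongest of the 8, and 73.0% of all TCF7L1 summits had a lower fold enrichment. The SPATA2 summit and the CDH2 start summit had 26 reads each, and the background at CDH2 was higher.

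For the 4 factors with no summit in the window, the nearest TCF7L1 summit was measured. It was 216323 bp downstream of a TSS for TWIST1, inside HDAC9, with a fold enrichment of 5.66 (interval 3.32 to 9.10). For ZEB1 the distance was 765248 bp in the upstream direction, and the fold enrichment was 4.95 (interval 3.08 to 7.60). For SNAI2 it was 922321 bp downstream, with UBE2V2 as the nearest protein-coding gene and a fold enrichment of 4.13 (interval 2.38 to 6.74). For TWIST2 the nearest was inside AGAP1, 2769430 bp away, and its fold enrichment was 4.73 (interval 2.98 to 7.18), and 96.9% of protein-coding genes had a nearer summit than TWIST2 did. Because the list holds only regions past the threshold of the peak caller, weaker occupancy at these genes was not measured.

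Of the epithelial genes, GRHL2 had a summit and CDH1 had none. No TCF7L1 summit lay in the 286 kb window of CDH1, which is on the plus strand of chromosome 16 at 68737292 to 68835537 and has 10 annotated TSSs. The nearest was 365186 bp downstream of a CDH1 TSS, in the region 69188074 to 69188587 within SNTB2 and UTP4, with 7 reads over a background of 0.496 and a fold enrichment of 5.35 (interval 2.55 to 10.3). For 51.8% of protein-coding genes the nearest summit was closer. CDH3, the neighbour of CDH1 that encodes P-cadherin, also had no summit in its window. CDH2 thus had 3 summits where CDH1 had 0, a difference between genes of 1 library that has no replicate check. The CDH2 window was longer, at 412 kb against 286 kb. CDH12, another classical cadherin, had as many summits as CDH2.

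GRHL2 lies on the plus strand of chromosome 8 at 101492439 to 101669726. Its 1 summit was in the region 101474031 to 101474412, 18158 bp upstream of the TSS, inside an intron of the long non-coding RNA ENSG00000254024. No other protein-coding TSS was nearer. The fold enrichment was 4.84 (interval 3.01 to 7.42), with a −log10 q-value of 5.04 and 19 reads over a background of 3.13, values close to the medians over all TCF7L1 summits of 4.98, 5.44, 20 and 3.29.

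**Figure D4:**
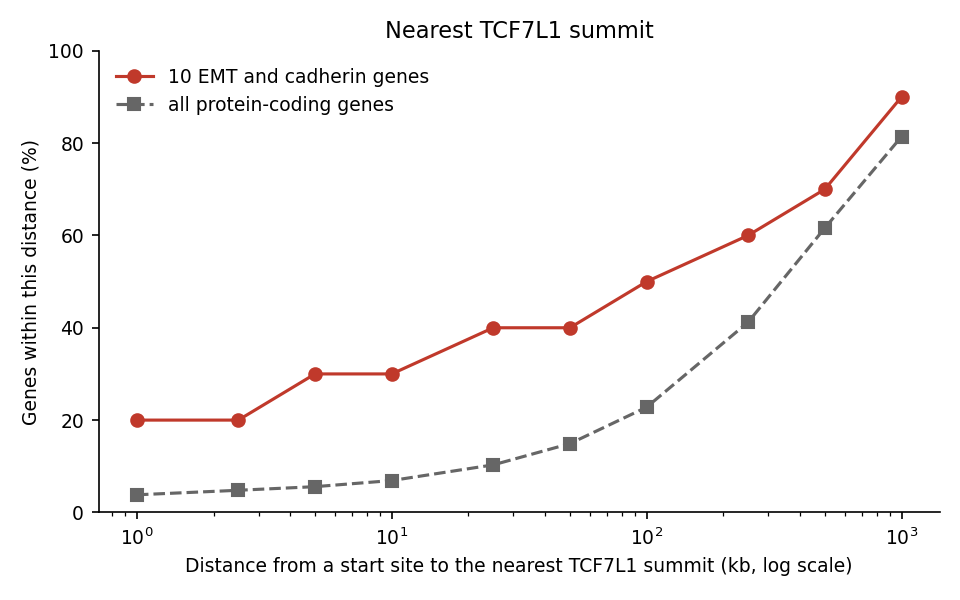
Share of genes (%) whose nearest TCF7L1 summit lies within a given distance of a TSS (kb, log scale) for the 10 EMT and cadherin genes (red) and all 20033 protein-coding genes (grey). Within 2.5 kb there are 2 of the 10 genes against 4.8% of all, within 100 kb there are 5 of the 10 against 22.8%, and within 1000 kb there are 9 of the 10 against 81.4%.

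The genes nearest to the 8 summits were not always the EMT genes. By the nearest protein-coding TSS, 6 summits belonged to the 10 genes, with 3 at CDH2 and 1 each at ZEB2, VIM and GRHL2. The other 2 belonged to SPATA2 and TRDMT1, and these had the highest fold enrichments. By the nearest TSS of any class, 3 summits belonged to the 10 genes, 2 at CDH2 and 1 at VIM. The summits near ZEB2 and beyond the 3′ end of CDH2 were 11 and 270 bp from the TSS of a long non-coding RNA. At GRHL2 the nearest TSS, of the long non-coding RNA ENSG00000289048, was 18017 bp away, little closer than that of GRHL2 at 18158 bp. Past the 100 kb limit, the closest further summits were 104071 bp downstream of a CDH2 TSS, with a fold enrichment of 4.66, and 183209 bp downstream of SNAI1, with a fold enrichment of 5.10.

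The TCF7L1-MUT sample was the control for occupancy that does not need an intact DNA-binding domain. It had 0 summits in the windows of the 10 genes, and 0.739% of protein-coding genes had a TCF7L1-MUT summit under the same rule. None of the 8 TCF7L1 regions overlapped a TCF7L1-MUT region by 1 bp or more. The nearest TCF7L1-MUT summit was 5.05 Mb from a TSS at CDH2 and farther at the other 9 genes, up to 141 Mb at TWIST2. Since so few genes in the genome had a TCF7L1-MUT summit, its absence from 10 genes is the usual case and shows nothing particular to them.

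Sequence at the summits was compared with that of all TCF7L1 windows, each reaching 100 bp to either side of a summit, and both strands were searched. All 8 windows were single-copy sequence, meaning that under 50% of their 31-base words occurred again in the genome, against 78.2% of TCF7L1 windows. The TCF core, as defined above, was present in 2 of the 8 windows, at the TRDMT1 start and upstream of GRHL2, and in 26.6% of 3730 TCF7L1 windows (21.1% of the single-copy ones). At TRDMT1 the match read CTTTGAT and was centred 43 bp from the summit, and at GRHL2 it read CTTTGAA at 56 bp. The windows at the starts of CDH2 and VIM held no match, and neither did that at ZEB2. The looser TCF pattern TTTNAN, with G or T at the first N and A or T at the second, can overlap the core and was found in 6 of the 8 windows and in 53.2% of all. The 2 windows without one were the CDH2 intron and the summit beyond the 3′ end of CDH2.

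CACCTG was found in 1 of the 8 windows, that of ZEB2, centred 71 bp from the summit, and in 14.6% of TCF7L1 windows. The forkhead patterns TATTTAC and TGTTTAC and the AP-1 patterns TGACTCA and TGAGTCA were in 0 of the 8 windows, against 12.4% and 7.21% of TCF7L1 windows. Within 250 bp of the summit, CACCTG was in 4 of the 8 windows, the forkhead patterns in 1 and the AP-1 patterns in 2. The shares of TCF7L1 windows were then 32.7%, 24.4% and 13.2%. A set of RefSeq promoters for GRCh38.p14, 250 bases before to 50 after each start, was also searched. The set need not hold every RefSeq gene, and 5 of the 10 genes had an entry in it (ZEB1, ZEB2, TWIST2, CDH2 and VIM). The TCF core was in 0 of their promoters and in 13.8% of 35116 promoters in all. CACCTG was in 2 of the 7 ZEB1 promoters, in 0 promoters of the other 4 genes, and in 20.6% of all promoters. With so few windows and promoters, these counts are descriptions and were not tested.

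Other genes of EMT and cell adhesion were counted to place these 10. In 6 lists with 89 genes, 33 had a TCF7L1 summit under the same rule, 13 had one within 2.5 kb of a TSS, and 0 had a TCF7L1-MUT summit. The shares of all protein-coding genes were 23.1%, 4.8% and 0.739%, so that 0 genes with a TCF7L1-MUT summit is close to the share of all genes. The median window was 232 kb. The adherens junction partners, which link cadherins to actin and to neighbouring cells, had 8 of 12 genes with a summit, and their median window was 316 kb, a length that falls in the longest window quartile, where 34.4% of protein-coding genes had one. They included NECTIN3, a cell adhesion molecule, with a summit at −229 bp from a TSS and a fold enrichment of 8.82 (interval 6.25 to 12.1). The alpha-catenin genes CTNNA2, with 6.94 (interval 4.54 to 10.2) in the gene body, and CTNNA3, with 4.84 (interval 2.74 to 8.04) at −96 bp from a TSS, were also among them. CTNNA3 was multi-copy sequence.

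Of 19 other cadherins, not all of them classical, 7 had a summit (CDH4, CDH8, CDH9, CDH11, CDH12, CDH24 and CDH26), or 36.8%. Their median window was 323 kb, a length in the longest window quartile, where 34.4% of protein-coding genes had a summit. Over all protein-coding genes the share was 23.1%. The highest fold enrichments inside or close to one of these genes were at CDH11, with a fold enrichment of 6.68 (interval 4.48 to 9.61) in the gene body, at CDH8, with 6.57 (interval 4.08 to 10.1) at −77 bp from a TSS and in multi-copy sequence, and at CDH12, with 4.95 (interval 2.68 to 8.53) in the gene body. These 3 values were above those of the CDH2 summits, and the intervals of each overlapped those at CDH2. CDH8 and CDH12 were the cadherins of this list with a summit within 2.5 kb of a TSS.

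Of 12 other EMT transcription factors, 5 had a summit, beside 23.1% of all protein-coding genes. TCF4, which encodes a bHLH factor that binds E-boxes and is not a TCF/LEF gene, had more than 1. Its highest fold enrichment was 6.95 (interval 4.63 to 10.1) at −1659 bp from a TSS. Another, 19 bp downstream of a TSS, had 5.94 (interval 3.65 to 9.2). TCF12, another bHLH gene, had 4.73 (interval 2.42 to 8.55) in multi-copy sequence of the gene body. Of 12 epithelial regulators, 3 had a summit, a share close to the 23.1% of all protein-coding genes. GRHL3, a relative of GRHL2, had one in the gene body with a fold enrichment of 3.86 (interval 2.59 to 5.55). It had another at −588 bp from a TSS, with 3.47 (interval 2.27 to 5.1).

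Of 18 epithelial junction and keratin genes, 8 had a summit and 5 had one within 2.5 kb of a TSS, beside 23.1% and 4.8% of all protein-coding genes. EPCAM, which encodes an epithelial adhesion molecule, had 4.51 (interval 2.87 to 6.79) at −67 bp. The keratin genes KRT19 and KRT8 had 4.24 (interval 2.70 to 6.38) at −2179 bp and 4.22 (interval 2.68 to 6.35) at 1022 bp downstream. Of 16 mesenchymal effector genes, 2 had a summit, SPARC and LOXL2, a smaller share than the 23.1% of all protein-coding genes. SPARC, which encodes a matrix protein, had 5.96 (interval 4.06 to 8.48) 231 bp downstream of a TSS. The lists differ in window length and hold genes that share a window, such as KRT8 and KRT18, so the counts are descriptions and were not tested.

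**Figure D5:**
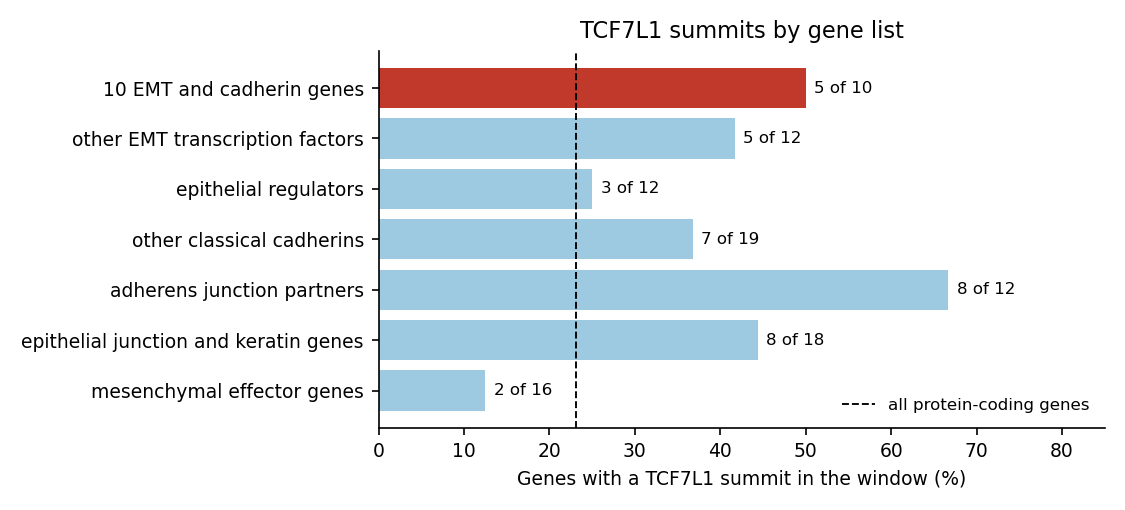
Share of genes (%) with a TCF7L1 summit inside the gene or within 100 kb of a TSS, for the 10 EMT and cadherin genes (red) and 6 related lists (blue), with counts beside the bars and the share of all protein-coding genes, 23.1%, as a dashed line. The adherens junction partners have the longest bar, 8 of 12, and the mesenchymal effector genes, 2 of 16, are the one list below the line. The list labelled as classical cadherins also holds cadherins outside that class.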

How the data were processed

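Peaks were called by the authors for each of 2 samples on its own with MACS2 (2.1.0), after mapping to GRCh38/hg38 with BWA (0.7.12). Use of an input library and the q-value threshold are not given in the sources used here. The deposited fold enrichment is a ratio with a pseudocount of 1. The deposited −log10 p-values and q-values are those of MACS2, and the deposited score, 10 times the −log10 q-value, was not used. All 3986 lines of the deposited summit lists repeated the positions and q-values of the peak lists.

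Summits, 1-based, were compared with GENCODE release 44. Read numbers and backgrounds were derived by matching the deposited ratio and a Poisson p-value, which agreed within 0.001 in −log10 p for 100% of TCF7L1 summits. Copies of 31-base words were counted over 194 sequences without alternates. Python 3.11.15 and scipy 1.17.1 were used, and the code was tested on simulated data. The gene set and lists were chosen with earlier results of these data known. Named genes were the 10 genes, the genes nearest to or holding each summit, and up to 3 genes per list with the highest fold enrichment inside the gene or within 2.5 kb; CDH3 and list members given without values were named after the results were seen. A withheld item that the rule named is not reported here. No p-value was computed, since each group had 1 sample. Alternatives covered thresholds, distances, TSS choice, overlap, windows and copy number.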

Additional observations from a re-analysis of the deposited data

How the results depend on the processing

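No paired analysis was possible because TCF7L1 and TCF7L1-MUT are single samples, so leaving a replicate aside was not possible either. The 10 results were recomputed under 58 alternatives. Of these, 42 left a count within 1.5 times its reported value or another value within its limits, and 16 did not. For shares and summits per Mb the limits were a 95% interval. For the median fold enrichment they were the lowest and highest of the 8 summits, 3.20 and 9.89. A median over any of these 8 could not leave such limits, so its place among the 42 shows no stability. Other alternatives among the 42 could not move a value either. All 8 summits were in separate, single-copy regions, so using 1 summit per region or single-copy regions alone left their number unchanged. An overlap of 50% could not add to the 0 regions found with 1 bp. The 42 is thus not a measure of stability. With a fold enrichment of at least 5 the median fold enrichment was 7.84, against 3.64, and it could not have been below 5. Distances of 250 kb and 50 kb gave 4.66 and 3.32, and the 5′ end of the gene also gave 3.32. Dropping summits whose q-value exceeded 0.001 raised the median to 4.84. The 4.98 over all TCF7L1 summits has no such limit and was not recomputed under these settings. Whether the median at the 10 genes stays the lower one under them is therefore not known. With a q-value of at most 0.001, summits at the 10 genes numbered 5 in place of 8. Those at ZEB2, at the VIM start and beyond the 3′ end of CDH2 had q-values above 0.001 and were left out. CDH2 was then the 1 gene with a summit within 2.5 kb of a TSS, and 4 of the 10 genes and 19.9% of protein-coding genes had a summit. With a fold enrichment of at least 5, the 2 summits at SPATA2 and TRDMT1 remained, in the windows of 2 genes, with 0.745 summits per Mb and 11.7% of protein-coding genes. Inside genes alone there were 3 summits in 2 genes. A summit was found for 4 of the 10 genes and 15.5% of protein-coding genes at 50 kb, for 6 and 41.2% at 250 kb, for 5 and 21.3% from the 5′ end of the gene, and for 5 and 19.6% in single-copy regions. The TCF core was in 1 of 8 windows within 50 bp of the summit (15.3% of all TCF7L1 windows) and in 3 within 250 bp (48.0%), and the looser pattern was in 6 (53.2%). Within 2.5 kb of a TSS, 13 genes of the related lists had a summit. Summits with few reads, such as the 13 beyond the 3′ end of CDH2, have wide intervals, and a gene without a listed summit may hold occupancy under the threshold.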
